A study of Mus musculus with 6 samples.

Results

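The type I interferon stimulated genes are transcripts that cells make when interferon alpha or beta binds its receptor. A list of 37 such genes was followed in germinal centre B cells of mice with and without a conditional deletion of Lsd1, and each of the 37 was found by its symbol among the 15861 genes of the deposited count table. The cells were sorted as B220+, GL7+ and FAS+, and their polyadenylated RNA was sequenced, with 1 library per mouse. The KO group held 3 libraries from C57BL/6 mice of the genotype Cgamma-cre+/-; Lsd1 f/f, and the WT group held 3 libraries from C57BL/6 mice of the genotype Lsd1 f/f. Cgamma-cre is named for the immunoglobulin heavy chain constant region locus that drives it. Both groups thus carried the floxed alleles, and a single Cre allele set them apart, so effects of Cre and of the deletion cannot be told apart. The series' design text calls the mice littermates, and their ages were not in the sources used here. In sorted bulk RNA, fewer cells of a type and less RNA per cell cannot be told apart.

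Type I interferons bind a receptor made of IFNAR1 and IFNAR2, whose kinases JAK1 and TYK2 phosphorylate STAT proteins such as STAT2. With IRF9, STAT2 forms part of a transcription factor complex that binds interferon-stimulated response elements near its target genes. The products sense viral nucleic acid, degrade or sequester viral RNA, carry the signal further or end it. Germinal centre B cells are activated B cells that divide and mutate their antibody genes in lymphoid follicles. Lsd1, also named Kdm1a, encodes a histone demethylase of repressor complexes.

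Promoter sequences of RefSeq (GRCm38.p6, 250 bases before to 50 after a start site) were matched by symbol for 27 of the 37 members. The core of the response element, searched as GAAA, any 2 bases and GAAA again on both strands, was present in the promoter of 14 of these 27 genes (51.9%), against 471 of 11994 genes of the count table with a promoter entry (3.93%). Overlapping matches were counted separately, and a gene with several start sites was counted once. The genes with a match were Bst2, Cxcl10, Ddx58, Eif2ak2, Ifih1, Ifit1, Ifit3, Ifit3b, Isg15, Oas1a, Oas3, Rsad2, Stat2 and Trim30a. These 4 promoters are shown as examples, with bases of the match in capitals. Their genes had log2 fold changes from -0.12 (Isg15) to 1.91 (Cxcl10) in the results below, where all tested members ran from -0.58 to 1.91. Ifit2 had the smallest p of the members and its 2 listed start sites had no match, of which the first is shown. Ifih1 and Cxcl10 had 1 match each, and Isg15 had 3 that overlap.
Ifit2 (chr19:34550444-34550743, plus strand, GRCm38.p6): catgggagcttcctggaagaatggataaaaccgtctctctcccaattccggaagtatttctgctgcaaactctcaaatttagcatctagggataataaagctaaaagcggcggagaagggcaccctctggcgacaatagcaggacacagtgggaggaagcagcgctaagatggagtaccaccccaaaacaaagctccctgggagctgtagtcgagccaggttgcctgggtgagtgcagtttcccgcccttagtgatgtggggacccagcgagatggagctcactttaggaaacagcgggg
Ifih1 (chr2:62646206-62646505, minus strand, GRCm38.p6): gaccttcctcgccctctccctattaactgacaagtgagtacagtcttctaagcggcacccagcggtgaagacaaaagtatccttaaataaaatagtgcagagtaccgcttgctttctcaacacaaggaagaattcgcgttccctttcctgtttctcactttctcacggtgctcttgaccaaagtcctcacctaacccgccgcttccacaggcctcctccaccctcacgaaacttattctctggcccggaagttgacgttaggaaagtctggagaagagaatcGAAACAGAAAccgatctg
Isg15 (chr4:156200769-156201068, minus strand, GRCm38.p6): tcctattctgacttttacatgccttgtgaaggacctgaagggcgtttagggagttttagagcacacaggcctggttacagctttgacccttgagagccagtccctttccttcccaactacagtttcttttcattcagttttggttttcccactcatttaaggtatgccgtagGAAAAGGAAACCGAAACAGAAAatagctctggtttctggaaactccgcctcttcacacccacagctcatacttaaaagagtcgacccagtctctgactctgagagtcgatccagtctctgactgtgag
Cxcl10 (chr5:92348840-92349139, minus strand, GRCm38.p6): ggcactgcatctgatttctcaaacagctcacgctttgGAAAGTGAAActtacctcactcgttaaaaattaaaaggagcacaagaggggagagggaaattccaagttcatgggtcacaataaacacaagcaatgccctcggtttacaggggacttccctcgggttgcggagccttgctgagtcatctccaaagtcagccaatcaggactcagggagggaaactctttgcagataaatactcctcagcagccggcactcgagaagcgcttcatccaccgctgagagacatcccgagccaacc
Positions are counted from 0 at the start site, and the matches began at -78, -72 and -66 in Isg15, at -213 in Cxcl10 and at 32 in Ifih1. A match is a run of letters and not a measured site.

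The KO libraries held about 12325300 to 14327700 counts and the WT libraries about 3390800 to 5524850 counts, with no overlap, so depth and genotype cannot be told apart. Kdm1a, the targeted gene, stood at 81.9, 33.0 and 21.8 CPM in KO libraries 1 to 3 and at 134, 85.2 and 92.6 CPM in WT libraries 1 to 3. Its log2 fold change of -1.19 (SE 0.50) did not pass (edgeR adjusted p = 0.393). CPM are counts relative to the library size, with sizes scaled by TMM (trimmed mean of M-values) unless stated otherwise. The library labelled KO 1 lay near the lowest WT library, and by library totals alone its 87.5 CPM lay inside the WT range of 78.9 to 135. The counts are per gene and not per exon, so they do not settle that label. Without KO 1 the value was -1.93 and passed (edgeR adjusted p = 0.0169; adjusted p from 0.0169 to 0.9997 over 16 alternatives). Each value of the KO group below includes the library labelled KO 1. In CPM of library totals, the sum of 15 germinal centre B cell markers was 8563 to 10843 in KO libraries and 9629 to 13401 in WT libraries, so the markers of the labelled cell type were abundant in each. None of the 15 passed the test. Of them, 3 (Cd79b, Cd79a and Gcsam) had an unadjusted p under 0.05, lower in KO, beside 5.5% of all genes tested. The log2 fold change was below 0 for 12 of the 15 and above 0 for 3, with a median of -0.21, whereas 51.3% of all genes tested were above 0. The sum over 20 markers of macrophages and dendritic cells, in CPM of library totals, was 339, 261 and 4397 in KO 1 to 3 and 434, 1810 and 3287 in WT 1 to 3. Of these 20, Itgax and Itgam were highest in KO 1. Itgax came to 30.0, 0.838 and 8.38 in KO 1 to 3 and 0.792, 1.81 and 4.72 in WT 1 to 3, and Itgam to 20.1, 2.44 and 5.03 in KO 1 to 3 and 0.264, 3.08 and 0.590 in WT 1 to 3. Plasma cell markers (10 genes) came to 2845 to 3576 in KO and 2457 to 3544 in WT. Of the 9 tested, 3 (Irf4, Prdm1 and Cd93) had an unadjusted p under 0.05, higher in KO, beside 7.1% of all genes tested. Over these 9 the log2 fold change was above 0 for 6 and below 0 for 3, with a median of 0.13. Plasmacytoid dendritic cell markers (10 genes) came to 935 to 1137 in KO and 807 to 1162 in WT, and T and NK cell markers (13 genes) to 319 to 356 in KO and 332 to 423 in WT. Of the plasmacytoid set Siglech never exceeded 9 counts, whereas Irf8 and Tcf4, which B cells also express, made up most of the sum. Cd2 and Lck made up most of the T and NK sum in each library, whereas Cd3d and Cd3g never exceeded 15 counts. Neutrophil and monocyte markers (6 genes) came to 27.0, 3.07 and 3.43 in KO and at most 1.18 in WT, with Ly6c2 at 25.9 in KO 1. The part of these cell types in the results below was not tested.

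None of the interferon-stimulated genes passed the test between KO and WT. Of the 37 members, 32 had enough counts to be tested, and 0 of these 32 had an adjusted p under 0.05 by edgeR's quasi-likelihood test, in a fit where 0.0732% of all 10926 genes tested were called higher in KO and 0.00915% lower. DESeq2 and limma-voom also called 0 of the 32. At an unadjusted p under 0.05, 8 of the 32 (25%) were higher in KO and 0 lower, against 7.1% of all genes tested that were higher and 5.5% lower. These 8 were Ifit2, Cmpk2, Oasl2, Parp14, Usp18, Ifih1, Dtx3l and Trim30a. The median log2 fold change was 0.37 over the 32 tested members and 0.39 over all 37 with no filter, beside 0.01 over all genes tested, and 25 of the 32 values (78.1%) were above 0, as were 51.3% of all genes tested. Every KO library lay above every WT library for 7 of the 32 (21.9%), beside 10% of all genes tested, and for 8 of all 37, beside 9.09% of the whole table. Every KO library lay below every WT library for 0 of the 32, beside 7.95% of all genes tested. By library totals alone 8 of the 32 lay above, beside 13.7% of all genes tested. The filter on low counts takes a gene above a CPM cutoff in 3 libraries. The KO libraries can supply these alone for a gene that is higher in KO, so the share among tested members is a description. With KO 1 left out, 6 of 31 tested members had an unadjusted p under 0.05 on the higher side, beside 4.88% of all genes. With WT 1 left out it was 6 of 36 beside 6.84%, with 1 member on the lower side, and with both libraries numbered 3 left out, which held the highest macrophage marker sums of their groups, 5 of 31 beside 2.63%. With KO 2 left out the median was 0.60 and 12 of 33 members were below that p on the higher side and 1 on the lower side, beside 8.10% of all genes on the higher side.

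The libraries of a genotype differed among themselves over the list. Relative to the mean of the WT libraries, the median over the 37 members was 0.59 log2 units in KO 1, 0.17 in KO 2 and 0.56 in KO 3, and -0.30 in WT 1, 0.15 in WT 2 and 0.23 in WT 3. KO 2 thus fell between WT 2 and WT 3, and WT 1 lay lowest of the 6. Of the 32 tested members, 18 (56.3%) stood above every WT library in KO 1, beside 28.6% of all genes tested. In KO 2 it was 9 (28.1%) beside 19.6%, and in KO 3 it was 17 (53.1%) beside 27.3%. KO 2 lay within the WT range for 22 of the 32 (68.8%), beside 59.9% of all genes tested. WT 1 was the lowest library for 19 of the 32 (59.4%), beside 21.3% of all genes tested.

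**Figure D1:**
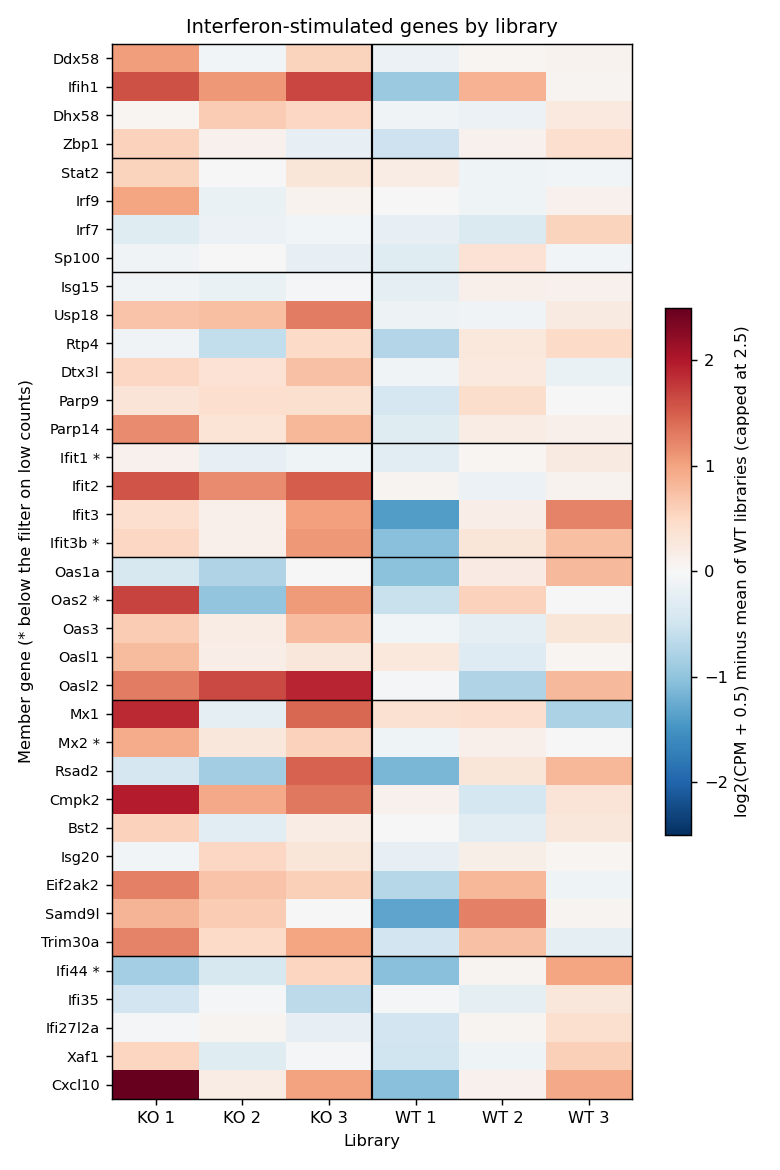
Heat map of the 37 members (rows, ordered by role) in the 6 libraries (columns), as log2(CPM + 0.5) minus the mean of the WT libraries, with red above and blue below that mean. KO 1 and KO 3 are red for most effector genes, KO 2 is paler, and WT 1 is the bluest column.

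**Figure D2:**
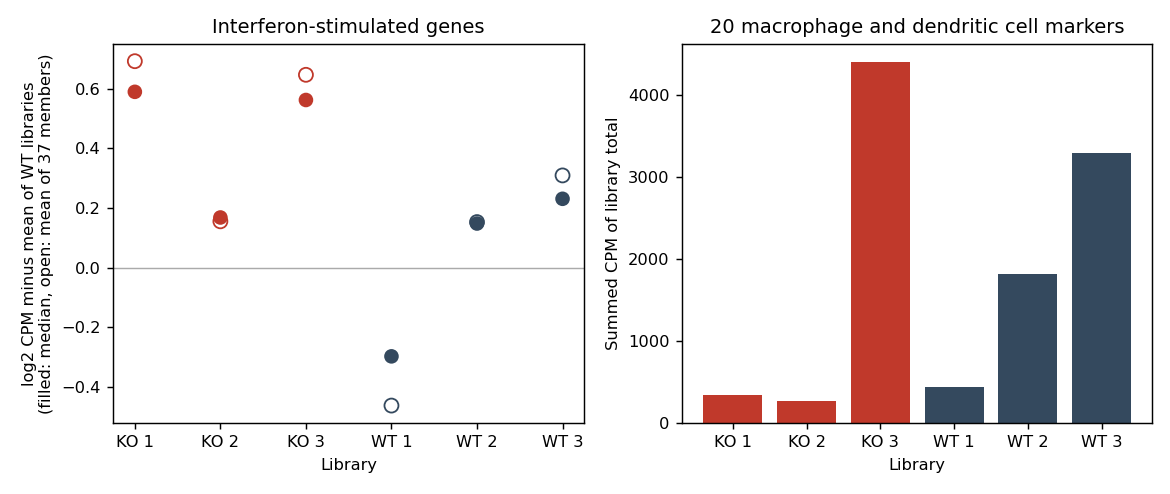
Left, the median (filled) and mean (open) over the 37 members of log2 CPM minus the mean of the WT libraries in each library, and right, the summed CPM of library total of the 20 macrophage and dendritic cell markers. The member median in KO 2 (0.17) lies between those of WT 2 (0.15) and WT 3 (0.23), and the marker sums are highest in KO 3 and WT 3.

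All 4 genes grouped here as sensors of viral nucleic acid had a log2 fold change above 0, from 0.15 to 1.38, and none passed the test. Of all genes tested, 51.3% were above 0. In the wider list of nucleic acid sensing genes below, 19 of 28 were above 0 and 9 below. Ifih1, which encodes the long double-stranded RNA sensor MDA5, stood at 9.95, 6.85 and 10.6 CPM in the KO libraries and at 1.31, 5.86 and 3.12 in the WT libraries. The groups did not overlap, although KO 2 and WT 2 lay close together. KO over WT, the log2 fold change was 1.38 (SE 0.49, 95% interval 0.31 to 2.45, edgeR adjusted p = 0.300), with the SE implied by the F statistic. Ddx58, which encodes the RNA sensor RIG-I, stood at 21.4, 9.74 and 15.2 CPM in the KO libraries and at 9.19, 10.6 and 10.9 in the WT libraries. KO 2 lay within the WT range and KO 1 was the highest. Its log2 fold change was 0.59 (SE 0.33, edgeR adjusted p = 0.486), and 0.28 without KO 1. Dhx58, the gene of the related helicase LGP2, averaged 45.5 ± 9.32 CPM in KO and 34.2 ± 5.22 in WT (SD, n = 3 each). Zbp1, a sensor of Z-form nucleic acid, averaged 36.96 ± 10.2 CPM in KO and 33.4 ± 10.6 in WT (SD, n = 3 each), a difference well inside the spread of either group.

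Over the 4 transcription factor genes the median was 0.09 on the log2 scale, with 2 above 0 and 2 below, and none passed. Stat2 and Irf9, whose products are parts of the factor that interferon activates, differed by 0.31 (SE 0.21) and 0.40 (SE 0.29) on the log2 scale. Irf9 stood at 73.4, 32.9 and 39.2 CPM in the KO libraries and at 36.5, 34.2 and 39.9 in the WT libraries. KO 1 lay above, KO 2 below and KO 3 within the WT range. Irf7, which encodes the factor that amplifies interferon production, stood at 34.1, 37.9 and 40.5 CPM in the KO libraries and at 36.8, 32.6 and 62.7 in the WT libraries. Its log2 fold change was -0.23 with a 95% interval of -0.80 to 0.35. Sp100, the gene of a nuclear body protein, stood at 284, 306 and 264 CPM in the KO libraries and at 247, 390 and 290 in the WT libraries. The KO libraries lay inside the WT range. The log2 fold change was -0.12 (SE 0.22, 95% interval -0.59 to 0.35, edgeR adjusted p = 0.873), and it was 0.01 with library totals alone and 0.08 without WT 2. The Sp100 transcript shares 8.67% of its 50-base stretches with other annotated genes, so its counts are less certain.

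Isg15, which encodes a ubiquitin-like modifier, stood at 7.29, 6.92 and 7.51 CPM in the KO libraries and at 6.57, 8.60 and 8.42 in the WT libraries. The KO libraries all lay inside the WT range (log2 fold change -0.12, 95% interval -0.83 to 0.59). Usp18, the gene of the protease that removes ISG15 and damps receptor signalling, stood at 10.3, 10.6 and 15.4 CPM in the KO libraries and at 5.52, 5.67 and 7.17 in the WT libraries. Each KO library lay above each WT library. KO over WT, the log2 fold change was 0.99 (SE 0.33, 95% interval 0.26 to 1.71, edgeR adjusted p = 0.284).

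Parp14, Parp9 and Dtx3l lie close together on chromosome 16 and encode a pair of ADP-ribosyltransferase family proteins and a ubiquitin ligase that binds PARP9. Parp14 stood at 122, 68.0 and 95.6 CPM in the KO libraries and at 43.1, 60.6 and 58.0 in the WT libraries. The groups did not overlap, and KO 2 came nearest to WT. The log2 fold change was 0.82 (SE 0.25, 95% interval 0.27 to 1.37, edgeR adjusted p = 0.272). Dtx3l stood at 71.7, 64.9 and 83.7 CPM in the KO libraries and at 47.0, 59.6 and 44.9 in the WT libraries, again without overlap (log2 fold change 0.54 ± 0.21 SE, edgeR adjusted p = 0.336, and 0.35 without both libraries numbered 3). Parp9 averaged 86.3 ± 2.51 CPM in KO and 68.3 ± 20.5 in WT (SD, n = 3 each), with WT 2 above all KO libraries. Dtx3l and Parp9 share 458 exonic bases on opposite strands, and since the strand setting of the counting is not given in the sources used here, reads there cannot be assigned to either with certainty. Rtp4, a gene of a receptor transporter protein, averaged 2.52 ± 1.13 CPM in KO and 2.73 ± 1.26 in WT (SD, n = 3 each).

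Among the IFIT genes, whose products bind viral RNA, Ifit2 differed most. It stood at 12.2, 9.17 and 11.7 CPM in the KO libraries and at 3.94, 3.32 and 4.05 in the WT libraries. The lowest KO library was above the highest WT library by more than the range of the WT group. Its log2 fold change of 1.55 (SE 0.34, 95% interval 0.80 to 2.30) had the smallest unadjusted p of the 37 members, 0.000789, and an edgeR adjusted p of 0.138. Over 16 alternatives the log2 fold change ran from 1.403 to 1.67 and the adjusted p from 0.0618 to 0.762. Ifit3 did not show that pattern, with 3.11, 2.47 and 5.004 CPM in the KO libraries and 0.525, 2.54 and 5.92 in the WT libraries. Its lowest and its highest library were both WT. Ifit1 and Ifit3b were below the filter on low counts. Ifit1 averaged 0.681 CPM in KO and 0.747 CPM in WT, and Ifit3b 1.11 CPM in KO and 0.676 CPM in WT. Ifit3 shares 51.2% of its 50-base stretches with Ifit3b, its close relative on chromosome 19, so counts of these 2 genes are uncertain. Ifit2 shares 0 such stretches with other annotated genes.

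OAS enzymes make the oligoadenylate signal that activates RNase L, and OAS-like proteins are their relatives. Oasl2, which encodes an OAS-like protein, stood at 7.97, 10.4 and 12.6 CPM in the KO libraries and at 2.89, 1.56 and 5.61 in the WT libraries. The groups did not overlap. KO over WT, the log2 fold change was 1.66 (SE 0.47, 95% interval 0.64 to 2.68, edgeR adjusted p = 0.232), the largest of the 8 members with an unadjusted p under 0.05. Oasl1 and Oas3 had values of 0.46 (SE 0.40) and 0.65 (SE 0.50) with overlapping groups. Oas1a lay on the other side at -0.58 (SE 0.48), with 5.09, 3.88 and 6.79 CPM in the KO libraries and 3.15, 8.01 and 12.5 in WT. It shares 57.6% of its 50-base stretches with Oas1g. Oas2, below the filter, had 41, 1 and 26 counts in KO and 1, 6 and 2 in WT, so KO 2 held a single count in spite of its depth.

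All 8 tested genes grouped here as antiviral effectors had a log2 fold change above 0, from 0.18 to 1.57, and none passed. Over all 32 tested members 25 were above 0 and 7 below, beside 51.3% of all genes tested that were above 0. Cmpk2, the gene of a mitochondrial nucleotide kinase, stood at 14.6, 6.92 and 9.08 CPM in the KO libraries and at 3.68, 2.35 and 4.36 in the WT libraries. The groups did not overlap, and KO 1 was the highest. The log2 fold change was 1.57 (SE 0.42, 95% interval 0.65 to 2.497, edgeR adjusted p = 0.213). Rsad2, its neighbour on chromosome 12 and the gene of the antiviral enzyme viperin, stood at 0.759, 0.423 and 4.15 CPM in the KO libraries and at 0.263, 1.56 and 2.49 in the WT libraries. KO 3 and WT 3 were the high libraries, and the groups overlapped.

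Trim30a, which encodes a ubiquitin ligase, stood at 82.5, 48.6 and 68.8 CPM in the KO libraries and at 24.7, 57.7 and 29.0 in the WT libraries. WT 2 lay above KO 2. KO over WT, the log2 fold change was 0.83 (SE 0.34, edgeR adjusted p = 0.349), the value was 1.31 without WT 2, and 6.53% of its 50-base stretches occur in Trim30d as well. Eif2ak2, the gene of the RNA-activated kinase PKR that halts translation, stood at 42.0, 28.7 and 26.3 CPM in the KO libraries and at 10.2, 30.9 and 15.9 in the WT libraries. WT 2 stood above KO 2 and KO 3 (log2 fold change 0.75 ± 0.38 SE, edgeR adjusted p = 0.446), and the value was 1.31 without WT 2, 0.52 without KO 1 and 0.44 without WT 1. Samd9l followed the same library, with 151 CPM in WT 2 and 24.9 in WT 1, a wider range than the 63.9 to 113 CPM of the KO libraries.

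Mx1, the gene of an antiviral dynamin-like GTPase, stood at 4.63, 0.706 and 3.29 CPM in the KO libraries and at 1.31, 1.37 and 0.312 in the WT libraries. KO 1 and KO 3 lay above the WT libraries and KO 2 within their range (log2 fold change 1.46 ± 0.77 SE, edgeR adjusted p = 0.453), and the value was 0.97 without both libraries numbered 3. Its relative Mx2, below the filter, had 14, 7 and 10 counts in KO and 1, 2 and 1 in WT, and its CPM did not overlap between the groups. Bst2, which encodes tetherin, a protein that holds budding virus at the membrane, stood at 26.5, 14.6 and 20.01 CPM in the KO libraries and at 17.3, 14.5 and 21.5 in the WT libraries. Its groups overlapped (log2 fold change 0.20 ± 0.29 SE, edgeR adjusted p = 0.824), and with 1 library left out the value ran from -0.05 without KO 1 to 0.40 without KO 2. Isg20, an RNA exonuclease gene, averaged 32.7 ± 6.59 CPM in KO and 27.1 ± 3.37 in WT (SD, n = 3 each).

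**Figure D3:**
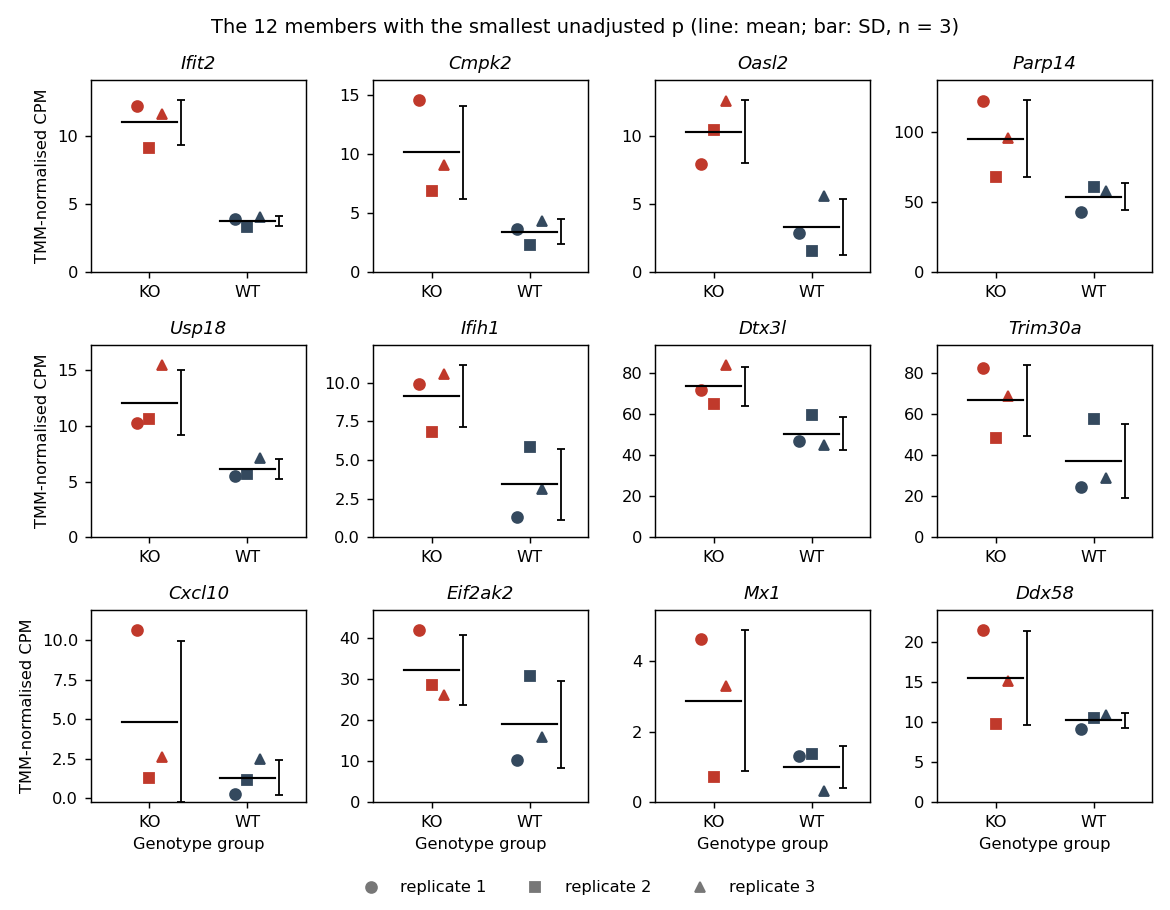
TMM-normalised CPM of the 12 members with the smallest unadjusted p in each library (marker shape by replicate number), KO left of WT, with the mean as a line and the SD as a bar (n = 3 each). In Ifit2 the KO libraries lie between 9.17 and 12.2 CPM and the WT libraries between 3.32 and 4.05, whereas in Cxcl10 KO 1 alone stands apart at 10.6.

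The remaining members were split. Cxcl10, the gene of a chemokine that attracts cells bearing CXCR3, stood at 10.6, 1.27 and 2.64 CPM in the KO libraries and at 0.263, 1.17 and 2.49 in the WT libraries. KO 1 stood apart, and the other libraries of both groups lay within 0.263 to 2.64 CPM. The log2 fold change of 1.91 (SE 0.94, 95% interval -0.21 to 4.04, edgeR adjusted p = 0.443) was 0.60 without KO 1 and 2.94 without both libraries numbered 3. Cxcl10 shares 133 exonic bases with Art3 on the opposite strand.

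Ifi35, which encodes a leucine zipper protein, stood at 52.0, 69.9 and 45.4 CPM in the KO libraries and at 70.4, 60.6 and 88.2 in the WT libraries. KO 1 and KO 3 lay below the WT range and KO 2 inside it, at a log2 fold change of -0.39 (SE 0.24, 95% interval -0.90 to 0.13, edgeR adjusted p = 0.519). It was -0.23 without WT 3 and -0.11 without both libraries numbered 3. Ifi27l2a, a gene of a small membrane protein family, stood at 109, 117 and 97.4 CPM in the KO libraries and at 80.4, 118 and 148 in the WT libraries. The KO libraries lay inside the WT range (log2 fold change -0.10 ± 0.24 SE, edgeR adjusted p = 0.911), and the sign turned with library totals alone (0.03), without WT 3 (0.11) and without both libraries numbered 3 (0.18). Xaf1, a gene linked to cell death, averaged 7.86 ± 2.55 CPM in KO and 7.62 ± 3.23 in WT (SD, n = 3 each). Ifi44 reached no more than 14 counts per library and was not tested.

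**Figure D4:**
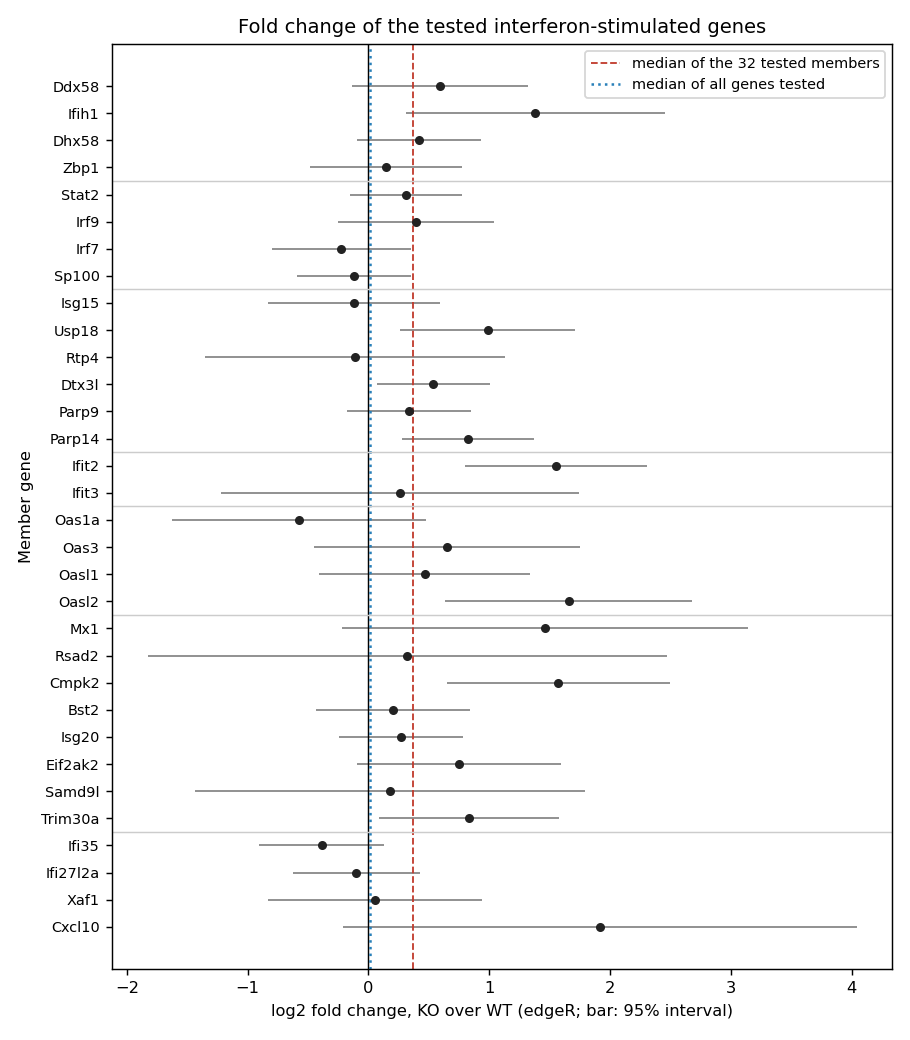
The log2 fold change of KO over WT (dots) with its 95% interval (bars) for the 32 tested members, grouped by role, with the median of the members (dashed, 0.37) and of all genes tested (dotted, 0.01). Intervals of Ifit2, Cmpk2, Oasl2, Parp14, Usp18, Ifih1, Dtx3l and Trim30a lie above 0, and those of the other members cross it.

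The members differed widely in level. Per kilobase of annotated exon and averaged over the 6 libraries, Ifi27l2a stood at 241 CPM per kilobase, ahead of Sp100 at 39.3, Ifi35 at 37.3 and Bst2 at 21.1. The groups of these 4 members overlapped. On the same scale Ifit2 averaged 2.81 CPM per kilobase in KO and 0.960 in WT, Cmpk2 2.45 in KO and 0.832 in WT, and Oasl2 1.62 in KO and 0.526 in WT. Of the other members with an unadjusted p under 0.05, Trim30a stood at 12.6 CPM per kilobase over the 6 libraries, Dtx3l at 10.8, Parp14 at 8.01, Usp18 at 3.26 and Ifih1 at 0.769. Ifi44 was the lowest at 0.0953 CPM per kilobase. Of the tested members with a promoter entry, the 12 with a match to the response element had a median log2 fold change of 0.46 and 2 had an unadjusted p under 0.05, beside a median of 0.33 and 4 such genes among the 12 without a match.

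Macrophage marker levels ran beside some of the members and not others. Among the KO libraries alone, KO 1, with a marker sum of 339, was the highest for 18 of all 37 members. KO 2, at 261, was the highest for 6, and KO 3, at 4397, for 13. The same count over all genes was not made. KO 3 and WT 3, which held the highest macrophage marker sums of their groups, were also the highest KO and the highest WT library for 8 of the 32 tested members (25.0%), beside 7.97% of all genes tested, and for 10 of all 37. These 10 were Ifi44, Ifit3, Ifit3b, Irf7, Oas1a, Oas3, Oasl2, Rsad2, Rtp4 and Usp18. The part of macrophage RNA in their levels was not tested. With both libraries left out, Oasl2 had a log2 fold change of 2.06 (edgeR adjusted p = 0.523) and Usp18 one of 0.89 (edgeR adjusted p = 0.9997). Values of the other members among these 10 in that fit are not given here.

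Genes upstream of the response were read in a second list of 15 receptor and signalling genes, 3 of which are members. None passed, and the median log2 fold change was 0.23. A value above 0 was found for 10 and one below 0 for 5, whereas 51.3% of all genes tested were above 0. The member Usp18, higher in KO, was the 1 of the 15 with an unadjusted p under 0.05, beside 7.1% of all genes tested that were higher and 5.5% lower. The Ifnar1 value was chosen after it was seen. Ifnar1 and Ifnar2, the receptor chains, had values of 0.30 (SE 0.22) and 0.74 (SE 0.42). Ptpn6, the gene of the phosphatase SHP-1, stood at 756, 904 and 773 CPM in the KO libraries and at 1101, 992 and 1154 in the WT libraries, with no overlap (log2 fold change -0.42 ± 0.20 SE, edgeR adjusted p = 0.407).

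Another list held 30 symbols of nucleic acid sensing genes, of which 28 were in the table and tested, 5 of them members. The other 2 symbols, Cgas and Sting1, are newer names of the listed Mb21d1 and Tmem173. None passed, the median log2 fold change was 0.23, and 3 genes (Tlr3, Tmem173 and Ifih1) of the 28 had an unadjusted p under 0.05 on the higher side, beside 7.1% of all genes tested, and 2 (Irf3 and Trex1) on the lower side, beside 5.5%. Tlr3, the endosomal receptor for double-stranded RNA, stood at 11.9, 7.62 and 11.9 CPM in the KO libraries and at 0.788, 3.13 and 2.18 in the WT libraries. The groups did not overlap (log2 fold change 2.33 ± 0.48 SE, 95% interval 1.28 to 3.39, edgeR adjusted p = 0.122). Tmem173, the gene of the cyclic dinucleotide receptor STING, stood at 103, 110 and 106 CPM in the KO libraries and at 60.4, 53.9 and 65.8 in the WT libraries. The KO libraries lay close together and clear of WT (log2 fold change 0.83 ± 0.19 SE, 95% interval 0.41 to 1.24, edgeR adjusted p = 0.158). Irf3, the factor that sensors activate, stood at 113, 141 and 104 CPM in the KO libraries and at 170, 146 and 186 in the WT libraries (log2 fold change -0.49 ± 0.21 SE, edgeR adjusted p = 0.364). Of 21 interferon genes listed, 2 were in the table, Ifnk and Ifng, neither above 8 counts in a library, and the others were not analysed here.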

How the data were processed

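The values deposited by the authors are raw counts of reads, with genes as symbols and each mouse in its own column. The submitters' processing notes name the build mm10 and the tools CASAVA, STAR 2.5.2 and featureCounts 1.5.2. The sources used here do not give the annotation, the strand setting or the handling of multi-mapped reads. Groups and replicate numbers came from the sample titles. Tests used edgeR 4.0.16 under R 4.3.3 (filterByExpr, TMM, robust glmQLFit and glmQLFTest, two-sided, Benjamini-Hochberg adjustment over all 10926 genes tested, threshold 0.05). The common biological coefficient of variation was 30.8%. Intervals of 95% use the SE implied by the F statistic. P-values set the difference between the groups against the spread of mice within a group, with variances moderated across genes. In CPM of library totals, 1 count equals 0.0698 to 0.0811 for KO and 0.181 to 0.295 for WT. Pairs of one group differed by a chi-square of 14.4 to 50.9 per degree of freedom, so none was the same library read again. That value cannot show whether separate preparations came from the same mouse.

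The members, lists and tests were chosen with earlier results of these data known. Values in every library are given for the 12 members with the smallest unadjusted p and the 4 with the highest level per kilobase, and the Irf9, Irf7, Isg15, Ifit3, Oas1a, Oas2, Rsad2, Mx2 and Samd9l values were chosen after they were seen. Exon lengths, overlaps and shared 50-base stretches came from GENCODE vM21, of the same build. Alternatives were other scalings and filters, DESeq2 1.42.0, limma-voom 3.58.1, a replicate block, each library left out, both libraries numbered 3 left out, and random thinning to the smallest total. The values of 1 gene of the receptor and signalling list are not reported here.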

Additional observations from a re-analysis of the deposited data

How the results depend on the processing

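In all 16 alternatives 0 members passed, and their median log2 fold change lay between 0.26 and 0.60, above the median of all genes in each. The 9 genes called over the whole table became 18 with library totals alone, 93 with no filter, 122 with DESeq2, 21 with the replicate block and 1 with both libraries numbered 3 left out, and 1 to 24 with 1 library left out; the cause was not tested. Kdm1a ran from -1.93 to -0.88 when 1 library was left out. Of 250 values of 16 named members under alternatives, 244 kept their sign and did not pass, and 6 changed sign at values near 0: Sp100 (0.0056 with library totals alone; -0.269 to 0.0834 with 1 library left out), Ifi27l2a (0.025 with library totals alone, -0.33 to 0.11 with 1 library left out, 0.18 with both libraries numbered 3 left out) and Bst2 (-0.0456 to 0.399 with 1 library left out). Library totals alone moved the median of all genes to 0.13, and the members' median was 0.50 there. Deviations of same-numbered KO and WT libraries correlated across genes at 0.34, -0.05 and 0.44 for numbers 1 to 3, and number 2 did not correlate best with its own, so the numbers were not taken as pairs; the replicate block called 0 members. With no filter all 37 members were tested. Of these, 9 had an unadjusted p under 0.05, higher in KO, beside 5.99% of all 15861 genes. WT libraries limit the precision at low levels, where 3 counts equal 0.543 to 0.885 CPM in WT.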
